A study of Homo sapiens with 6 samples.

Results

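The genes examined here were 9 named enzymes and enzyme subunits of the citric acid cycle and its cytosolic counterparts, namely CS, IDH1, IDH2, IDH3B, OGDH, SUCLG1, FH, MDH1 and MDH2. They were matched by gene symbol, and counts of long cDNA reads were summed over the transcript models of each gene. Of the 9 names, 8 matched rows among the 10072 genes of the count table. IDH2 had 0 matched rows and was not analysed here. The question was whether the mRNAs of these enzymes differed in level or in transcript form when the Delta 2-4 splice variant of TERT, the catalytic subunit of telomerase, was targeted by RNA interference.

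The cells were Calu-6, an established human non-small cell lung cancer line, and received 10 nM of siRNA for 48 h. A non-silencing siRNA was used in 3 libraries (siControl) and an siRNA against the junction of exon 1 and exon 5 of TERT in the other 3 (siDelta2-4). For this sequencing, the study's methods describe lines of these cells that stably carried an empty tagged vector or expressed the tagged variant. Such lines were made with lentivirus and selected with blasticidin. The column names of both groups carried the word that the study used for the empty vector, which points to the empty-vector line. The labels gave the genotype as WT in both groups, and this difference in naming was not resolved. One cell line and 1 siRNA against the variant were used, and the labels do not say whether the libraries came from separate cultures, so the p-values measure the spread between these libraries only.

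The citric acid cycle is the mitochondrial pathway that oxidises acetyl-CoA to carbon dioxide and passes the electrons to the respiratory chain as NADH and reduced flavin. Its intermediates also leave the mitochondrion for the synthesis of lipids, amino acids and haem, which proliferating cancer cells draw on heavily. CS opens the cycle by joining acetyl-CoA to oxaloacetate. The isocitrate dehydrogenases and OGDH carry out the oxidative decarboxylations, SUCLG1 belongs to the enzyme that makes succinate from succinyl-CoA, FH hydrates fumarate to malate, and MDH2 regenerates oxaloacetate. IDH1 and MDH1 are the cytosolic isozymes and act beside the cycle rather than in it. MDH1 and MDH2 together run the malate-aspartate shuttle, which carries reducing equivalents of cytosolic NADH into the mitochondrion.

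The libraries held 1037468 to 1106413 counts in siControl and 1070009 to 1309241 in siDelta2-4, and within a group they are named here by their total (highest, middle or lowest). TERT had 0 matched rows, so the knockdown was not checked in these counts. The lowest-total siControl library stood apart from the other siControl libraries. On the first principal component, which held 42.9% of the variance, it lay at -0.36, against -16.9 and -15.2 for the other siControl libraries. The siDelta2-4 libraries lay at 8.71 to 13.8. Fold changes of tested genes are therefore also given without the lowest-total siControl library. It was picked from these same counts and lay towards siDelta2-4, so leaving it out tends to widen differences between the groups. All 21472 transcript models were counted at least 1 time in siDelta2-4, but 4526 had 0 counts in siControl, and each of the 6398 unannotated models had at least 5 counts in every siDelta2-4 library. Of 7 epithelial markers 5 had rows, with KRT8 at 114 to 171 and KRT18 at 162 to 231 counts per library while CDH1 and CLDN4 had none, and their summed level was 259 to 297 CPM of the library total in siControl and 275 to 347 in siDelta2-4, which overlapped. Of 4 mesenchymal markers 2 had rows, nearly all of them VIM, at a summed 123 to 136 CPM in siControl and 153 to 175 CPM in siDelta2-4, without overlap. Among the 3888 genes tested below, 26.0% had CPM that did not overlap between groups. None of 6 lung identity markers had a row, and of 7 markers of other cell types only CD68 did, with 1 to 3 counts. The part of this difference in the results was not tested, and in bulk samples fewer cells of a type and less RNA per cell cannot be told apart.

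Malate dehydrogenases and the alpha subunit of succinyl-CoA ligase made up nearly all of the reads of the enzymes. MDH2 held 49.1% of them, MDH1 33.2% and SUCLG1 11.7%. The remaining genes were sparse, with FH at 2.35%, CS at 1.55%, IDH3B at 1.18%, IDH1 at 0.775% and OGDH at 0.0802%. The 8 genes together took 0.0460%, 0.0465% and 0.0633% of the counts of the siControl libraries of highest, middle and lowest total, and 0.0555%, 0.0619% and 0.0575% of the siDelta2-4 libraries in the same order. The siControl library that stood apart had the largest share of the 6, and the groups overlapped, with means of 0.0519% ± 0.00986 and 0.0583% ± 0.00327 (SD, n = 3 each).

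Levels of different genes were compared per length, as CPM (read counts brought to a common library total after TMM scaling, which corrects for differences in composition) divided by the gene's mean model length in kilobases, weighted by counts. On this scale MDH2 lay at 118 to 148 CPM per kilobase over the 6 libraries and MDH1 at 97.5 to 133. The ranges of these isozymes overlapped, although MDH2 was above MDH1 in 6 of 6 libraries. That order depends on the length given to MDH1, 1603 bases, because most of its reads were assigned to MDH1-216 (1647 bases). The reference transcript MDH1-201, with the same junctions, has 1296 bases, and a shorter length would raise MDH1 on this scale. Without division by length, MDH2 lay at 238 to 299.8 CPM and MDH1 at 156 to 214. SUCLG1, at 45.2 to 63.2 CPM per kilobase, was below MDH1 and above every other member with no overlap. FH lay at 4.22 to 10.3, IDH3B at 3.09 to 5.45, CS at 1.97 to 4.27 and IDH1 at 1.27 to 2.57 CPM per kilobase. Ranges next to each other in this list overlapped, so that the order of such neighbours was not separated by the spread between libraries. FH and IDH3B lay above IDH1 without overlap. OGDH was lowest, at 0 to 0.559 CPM per kilobase. Each long read was counted once whatever its length, so division by length can change the order of genes. In CPM alone, CS had a mean of 8.34 in siControl and 8.78 in siDelta2-4, above IDH3B at 6.75 and 6.43.

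No difference in the level of an enzyme between siControl and siDelta2-4 was larger than the spread between libraries in the test used. Of the 8 genes, 5 had enough reads to be tested (CS, SUCLG1, FH, MDH1 and MDH2), and 0 were called by the quasi-likelihood test of edgeR at an adjusted p under 0.1, while 13.0% of the 3888 genes tested were called, a share near which 0 of 5 also lies. At an unadjusted p under 0.05 the count was also 0 of 5 against 900 of all genes tested, and the Wald test of DESeq2 had 0 at that unadjusted level and called 0 of the 3 for which it gave an adjusted p (SUCLG1, MDH1 and MDH2). The CPM of no tested enzyme was free of overlap between groups, compared with 26.0% of all genes tested. Fold changes were above 0 on the log2 scale for 4 of 5 enzymes, with a median of 0.12, beside 53.9% of all genes and a median of 0.03. This direction was not stable. CS, MDH1 and MDH2 were below 0 when a trend on transcript length was removed. SUCLG1 was above 0 when libraries were scaled by their totals alone, a scaling that moved the median of all genes to 0.09. The shares of all genes given here rest on sums that include unannotated models, which were kept with at least 5 counts in every siDelta2-4 library. With annotated models alone, 252 genes were called in edgeR instead of 504, and 0 of the enzymes. The part of this filter in the shares was not tested.

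**Figure D1:**
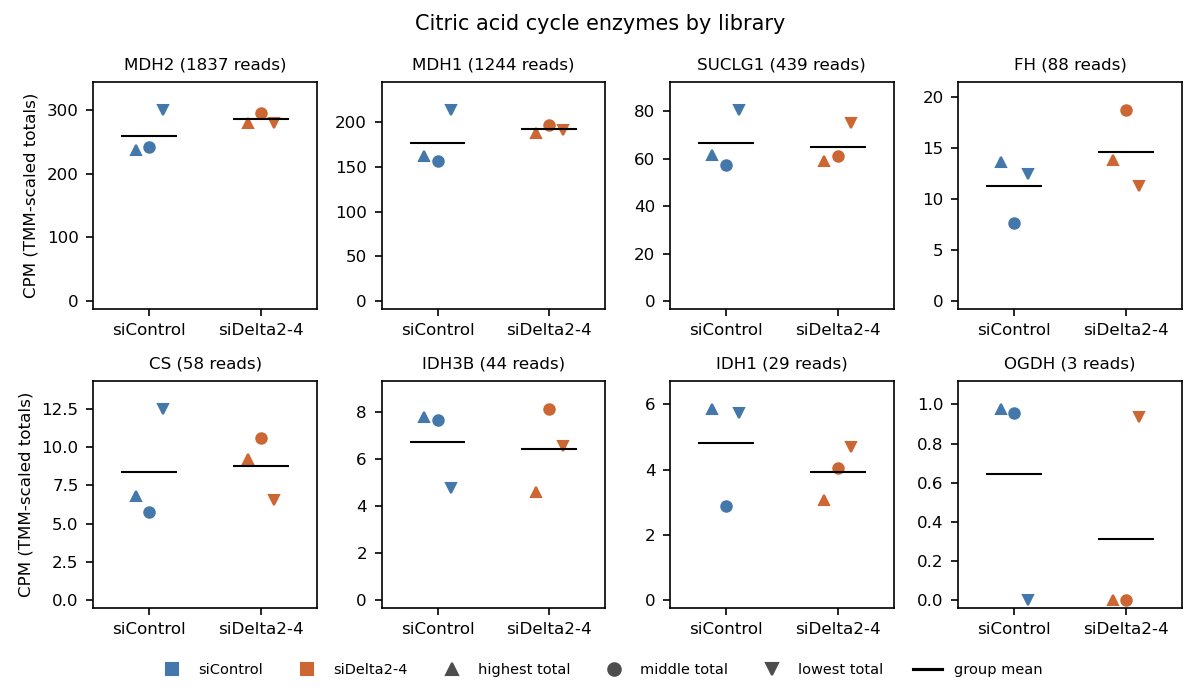
Level of each of the 8 counted enzymes in the 6 libraries, in CPM on TMM-scaled totals, with 1 panel per gene and its own axis from 0. Colours are the siRNA groups, symbols rank the libraries of a group by total count, and the horizontal line is the group mean. In no panel do the groups separate, and for MDH2, MDH1, SUCLG1 and CS the lowest-total siControl library is the highest of the 6.

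MDH2, the mitochondrial malate dehydrogenase (ENSG00000146701.12, chr7:76048051-76067508 of GRCh38, plus strand), was the most counted enzyme, with 1837 reads. The siControl libraries of highest, middle and lowest total held 244, 252 and 313 reads of MDH2, and the siDelta2-4 libraries held 365, 364 and 299. In CPM these were 238, 242 and 299.8 in siControl and 280.1, 296 and 280.0 in siDelta2-4. All siDelta2-4 values lay within the siControl range, because 1 siControl library exceeded them. The group means were 259.8 ± 34.7 and 285 ± 9.09 CPM (SD, n = 3 each), a log2 fold change of 0.13 ± 0.11 (SE) with a 95% interval of -0.08 to 0.35 and an adjusted p of 0.474 in edgeR. As a ratio of siDelta2-4 to siControl this was 1.10, with an interval from 0.944 to 1.28. Without the lowest-total siControl library, the log2 fold change was 0.23 ± 0.10 (interval 0.02 to 0.43, adjusted p = 0.112 in edgeR). Without the highest-total or the middle siControl library it was lower instead, at 0.0573 and 0.0818. The value of 0.23 did not pass the threshold either, in a fit of 5 libraries in which 25.4% of the 4098 genes tested did.

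MDH1, the cytosolic partner of MDH2 (ENSG00000014641.21, chr2:63588609-63607197, plus strand), followed the same pattern across libraries. Its 1244 reads were spread as 166, 163 and 223 in siControl and 245, 243 and 204 in siDelta2-4, in order of falling total. In CPM the siControl values were 162, 156 and 214 and the siDelta2-4 values were 188, 197 and 191. The siControl library that stood apart was again the highest, and the 3 siDelta2-4 values fell between it and the others. The means were 177 ± 31.6 and 192 ± 4.82 CPM (SD, n = 3 each), and the log2 fold change 0.12 ± 0.12 (SE, interval -0.13 to 0.36, adjusted p = 0.603 in edgeR), or a ratio of 1.08 (0.914 to 1.28). Without that siControl library the value was 0.25 ± 0.11 (interval 0.02 to 0.48, adjusted p = 0.114 in edgeR), whereas without the highest-total or the middle one it was 0.0368 and 0.0294.

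The balance between the cytosolic and the mitochondrial malate dehydrogenase was nearly the same in all libraries. The ratio of MDH1 to MDH2 reads was 0.680, 0.647 and 0.712 in siControl and 0.671, 0.668 and 0.682 in siDelta2-4, in order of falling total. The 3 siDelta2-4 ratios lay inside the siControl range, and the means were 0.680 ± 0.0328 and 0.674 ± 0.00765 (SD, n = 3 each). On the log2 scale the difference was -0.01, with an exact two-sided permutation p of 0.8, in a design of 20 splits that gives no p below 0.1. Its sign turned without the lowest-total siControl library, to 0.0222. The same ratio for IDH1 and IDH2 could not be formed.

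SUCLG1, the alpha subunit of succinyl-CoA ligase (ENSG00000163541.12, chr2:84423528-84460045, minus strand), had 439 reads. The siControl libraries held 63, 60 and 84 of them and the siDelta2-4 libraries 77, 75 and 80, in order of falling total. In CPM the values were 61.4, 57.5 and 80.5 in siControl and 59.1, 60.9 and 74.9 in siDelta2-4. In each group the library with the lowest total was the highest in CPM, and the groups overlapped. The means of 66.5 ± 12.3 and 65.0 ± 8.65 CPM (SD, n = 3 each) gave a log2 fold change of -0.04 ± 0.17 (SE, interval -0.38 to 0.30, adjusted p = 0.918 in edgeR). Its sign turned without the lowest-total siControl library, at 0.10 ± 0.17 (adjusted p = 0.746 in edgeR).

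FH, the fumarase of the cycle and a tumour suppressor of hereditary leiomyomatosis and renal cell cancer (ENSG00000091483.8, chr1:241497511-241519799, minus strand), had 88 reads and, in the fit of all 6 libraries, the largest fold change of the tested enzymes. The siControl libraries held 14, 8 and 13 reads and the siDelta2-4 libraries 18, 23 and 12, in order of falling total. The corresponding levels were 13.6, 7.67 and 12.5 CPM in siControl and 13.8, 18.7 and 11.2 CPM in siDelta2-4. Means were 11.3 ± 3.16 and 14.6 ± 3.78 CPM (SD, n = 3 each), with overlapping groups. The log2 fold change was 0.38 ± 0.33 (SE), but its interval ran from -0.29 to 1.06 and its adjusted p was 0.524 in edgeR. At this depth a ratio anywhere from 0.815 to 2.08 could not be told apart from the measured 1.30. The log2 fold change was 0.44 ± 0.38 without the lowest-total siControl library (adjusted p = 0.445 in edgeR), where CS had the larger value, and 0.17 without the middle siControl or the middle siDelta2-4 library.

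CS, citrate synthase (ENSG00000062485.19, chr12:56271699-56300391, minus strand), had 58 reads, divided as 7, 6 and 13 in siControl and 12, 13 and 7 in siDelta2-4 in order of falling total. The levels were 6.82, 5.75 and 12.5 CPM in siControl and 9.21, 10.6 and 6.55 CPM in siDelta2-4. Again the siControl library that stood apart was the highest. The means were 8.34 ± 3.60 and 8.78 ± 2.04 CPM (SD, n = 3 each) and the log2 fold change was 0.09 ± 0.38 (SE, interval -0.70 to 0.88, adjusted p = 0.926 in edgeR). Without that library the value was 0.47 ± 0.48 (adjusted p = 0.539 in edgeR), and without either of the other siControl libraries it was below 0. An antisense lncRNA annotated on the opposite strand of CS, CNPY2-AS1, had 521 reads. Whether counting used strand is not given in the sources used here, and an effect of strand on either count was not tested. All 58 reads of CS were assigned to CS-201, an annotated model of 11 exons.

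**Figure D2:**
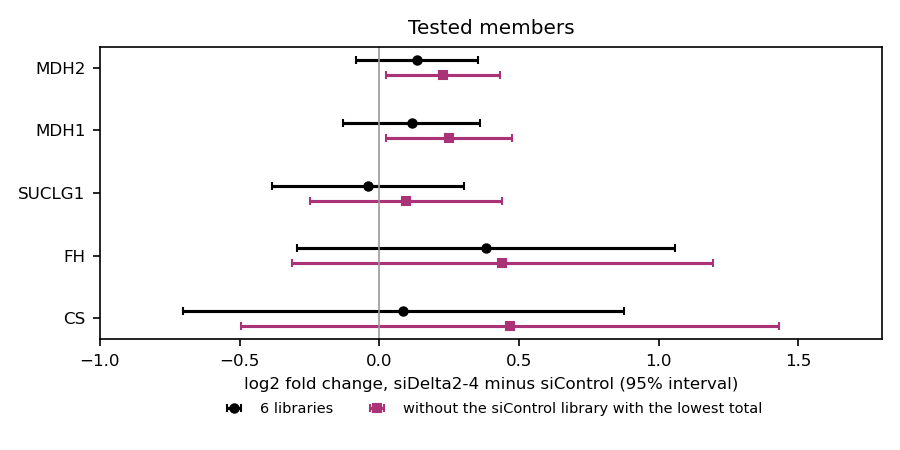
Log2 fold change of the 5 tested enzymes (siDelta2-4 minus siControl), with 95% intervals, in all 6 libraries (black circles) and without the lowest-total siControl library (purple squares). All black intervals include 0, and without that library the intervals of MDH2 and MDH1 start at 0.02.

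The isocitrate dehydrogenases and OGDH were too sparse for the test. IDH3B, the beta subunit of the NAD-dependent mitochondrial isocitrate dehydrogenase (ENSG00000101365.21, chr20:2658395-2664219, minus strand), had 8, 8 and 5 reads in siControl and 6, 10 and 7 in siDelta2-4, in order of falling total. Its levels of 6.75 ± 1.70 and 6.43 ± 1.76 CPM (SD, n = 3 each) overlapped, and the ratio of siDelta2-4 to siControl over summed counts was 0.990 (exact 95% interval 0.524 to 1.88). This interval and the next cover counting error only. IDH1, the NADP-dependent enzyme of cytosol and peroxisome whose mutant form makes an oncometabolite in glioma and leukaemia (ENSG00000138413.14, chr2:208236229-208266074, minus strand), had 6, 3 and 6 reads in siControl and 4, 5 and 5 in siDelta2-4. The levels were 4.82 ± 1.69 and 3.94 ± 0.813 CPM (SD, n = 3 each) and the ratio over summed counts was 0.844 (exact 95% interval 0.377 to 1.88). Opposite IDH1, the antisense lncRNA IDH1-AS1 had 5, 6 and 3 reads in siControl and 1, 2 and 2 in siDelta2-4, a total of 19 beside 29 for IDH1, with the same limit on strand.

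OGDH encodes the first component of the alpha-ketoglutarate dehydrogenase complex (ENSG00000105953.16, chr7:44606572-44709066, plus strand). It had 3 reads in all, with 1 in each of the other 2 siControl libraries, 0 in the lowest-total one and 1 in the lowest-total siDelta2-4 library. No ratio is given at this count. All 3 reads were assigned to OGDH-204, a model of 9 exons and 1744 bases, and none to the reference transcript OGDH-201, which has 23 exons and 4193 bases and is the longest of the reference transcripts (MANE Select) of the 9 genes.

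**Figure D3:**
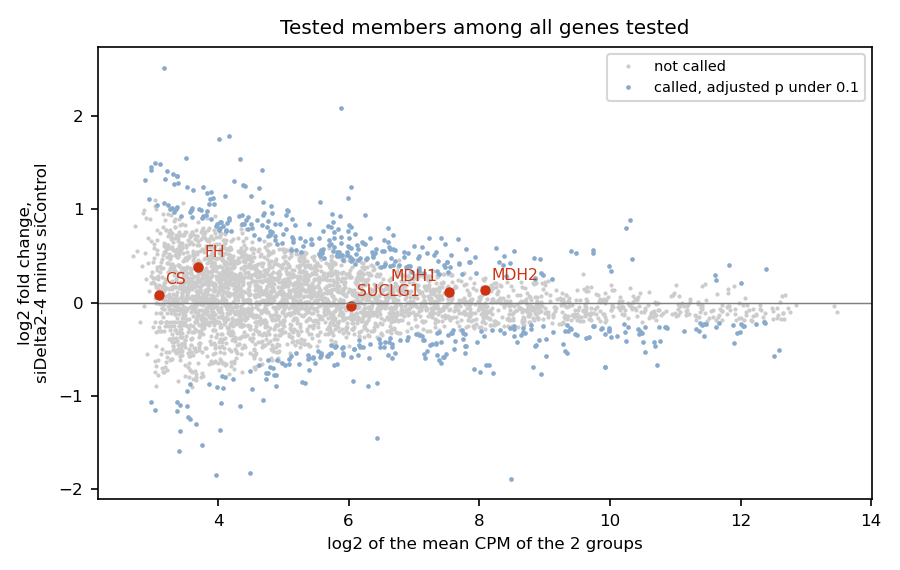
Log2 fold change (siDelta2-4 minus siControl) of the 3888 genes tested against the log2 of their mean CPM over both groups, with the 5 tested enzymes in red and called genes (adjusted p under 0.1 in edgeR) in blue. The enzymes lie among the grey genes that were not called, from CS at the sparse end to MDH2 among the more abundant genes.

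Among all genes tested, ranked by log2 fold change, the enzymes spanned the middle and upper part of the distribution. SUCLG1 stood at percentile 40.7, CS at 56.5, MDH1 at 59.4, MDH2 at 61.5 and FH at 81.9. Without the lowest-total siControl library, 5 of 5 were above 0 with a median of 0.25, beside 53.0% of all genes and a median of 0.03. In that fit 2 of 5 had an unadjusted p under 0.05 in edgeR, beside 1277 of 4098 genes. Of the 5 enzymes 0 were called, beside 25.4% of all genes tested.

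Each long read was also assigned to a transcript model, and most of the enzymes were read from a single form. The reference transcript took all 58 reads of CS, 99.5% of SUCLG1, 97.7% of FH and 96.6% of IDH1. IDH3B was read as IDH3B-201 in 36 of 44 reads, with 5 of IDH3B-206 and 3 of IDH3B-202. For MDH1, 92.4% of reads (1149) were assigned to MDH1-216, and the next model, TALONT000613406, held 60 reads and is an unannotated form truncated at its 5′ end. MDH1-216 shares 8 of 8 splice junctions with the reference transcript MDH1-201, which had no reads, and starts 354 bases upstream of it. Junctions therefore do not distinguish these MDH1 models.

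The first splice junctions of the MDH1 models give these models different starts of the coding sequence or leave out part of it, and 3 are given here for that reason. They are read 5′ to 3′ on the plus strand of GRCh38, with the last 15 bases of exon 1 in lower case and the first 15 bases of the next exon in capitals.
MDH1-216: cagttttcaatcatgTCTGAACCAATCAGA
MDH1-205: gataaggacgataagTCTGAACCAATCAGA
MDH1-202: cagttttcaatcatgGTTATTGTTGTGGGT
In MDH1-216 the exon ends with the start codon of the annotated protein. MDH1-205 joins a different first exon, with 57 coding bases, to the same second exon and had 2 reads. MDH1-202 keeps the first exon and skips 3 exons, and it had 0, 2 and 4 reads in siControl and 0, 6 and 6 in siDelta2-4, in order of falling total. The share of MDH1-216 in the reads of MDH1 was 95.2%, 92.0% and 91.9% in siControl and 92.7%, 92.2% and 90.7% in siDelta2-4. These shares overlapped, with means of 93.0% ± 1.85 and 91.8% ± 1.03 (SD, n = 3 each), and usage of the MDH1 models did not pass the gene-level test of diffSpliceDGE in edgeR (adjusted p = 0.864, 2 models).

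MDH2 was read from 6 models, and 3 of its annotated forms part at the first intron. The reference transcript MDH2-201 took 1569 reads (85.4%), TALONT000408064, an unannotated model with a splice site outside the annotation, 149 (8.11%), MDH2-205 87 (4.74%) and MDH2-204 22 (1.20%). These 3 annotated models share the end of exon 1 and differ in the exon joined to it, as the junctions show in the same notation as for MDH1. A further annotated model, MDH2-203, has the first junction of MDH2-201 and had 5 reads.
MDH2-201: agcacctcggcccagAACAATGCTAAAGTA
MDH2-204: agcacctcggcccagGCTACCTCGGACCTG
MDH2-205: agcacctcggcccagCGTTCCATTGCTTTG
MDH2-201 joins position 76048226 of chromosome 7 to exon 2 at 76054830, MDH2-204 skips that exon and joins it to 76057410, and MDH2-205 joins it to 76048576 and ends there as a transcript of 2 exons and 648 bases. The annotated coding length is 1014 bases in MDH2-201, 693 in MDH2-204 and 84 in MDH2-205. In MDH2-201 and MDH2-205 it starts in exon 1, at 76048161, whereas in MDH2-204 it starts downstream of the skipped exon, at 76057971. The coding part of exon 1 (chr7:76048161-76048226, plus strand, 66 bases) begins the peptide known to direct the protein into mitochondria, and its start codon is in capitals.
MDH2-201 coding part of exon 1: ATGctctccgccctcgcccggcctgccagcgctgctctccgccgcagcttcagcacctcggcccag
Exon 2 (chr7:76054830-76054998, plus strand, 169 bases), which MDH2-204 and MDH2-205 lack, encodes the beginning of the fold known to bind NAD.
MDH2-201 exon 2: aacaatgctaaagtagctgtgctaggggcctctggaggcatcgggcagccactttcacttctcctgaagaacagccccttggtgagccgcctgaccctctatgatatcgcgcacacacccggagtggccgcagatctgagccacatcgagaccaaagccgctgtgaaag

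A larger share of MDH2 reads came from the reference transcript in every siDelta2-4 library than in any siControl library, although the test of transcript usage did not pass. MDH2-201 made up 79.9%, 82.5% and 82.4% of MDH2 reads in siControl and 86.6%, 88.5% and 90.3% in siDelta2-4, in order of falling total. The groups did not overlap, with means of 81.6% ± 1.48 and 88.4% ± 1.86 (SD, n = 3 each). Among the 1168 genes with at least 2 well counted models (10 counts or more in 3 libraries), 13.2% had a share of the leading model that did not overlap between groups.

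The next most counted forms of MDH2 had lower mean shares in siDelta2-4. TALONT000408064 made up 13.1%, 7.94% and 9.90% of MDH2 reads in siControl and 7.95%, 6.87% and 4.01% in siDelta2-4, which overlapped, if only between 1 library of each group (10.3% ± 2.61 and 6.28% ± 2.03, SD, n = 3 each). MDH2-205 made up 5.33%, 7.14% and 5.43% in siControl and 3.56%, 3.57% and 4.35% in siDelta2-4, without overlap (5.97% ± 1.02 and 3.83% ± 0.451, SD, n = 3 each). Among reads of annotated models alone, MDH2-201 held 92.0%, 89.7% and 91.5% in siControl and 94.0%, 95.0% and 94.1% in siDelta2-4, again without overlap. How many genes separate in this way was not counted for models other than the leading one, or for annotated models alone. All these shares are parts of the same MDH2 reads, so they are not independent of the share of MDH2-201. MDH2-205 had only 13, 18 and 17 reads in siControl and 13, 13 and 13 in siDelta2-4.

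The gene-level usage test of diffSpliceDGE in edgeR gave MDH2 an adjusted p of 0.197 over 3 models, in a test that called 0.618% of 1132 genes. Without the lowest-total siControl library the adjusted p was 0.0911 in edgeR, which passed the threshold of 0.1 in a fit that called 5.03% of 1212 genes, and over annotated models alone it was 0.354. Under the remaining alternatives it ranged from 0.128 to 0.848. As a level rather than a share, MDH2-201 had a log2 fold change of 0.28 ± 0.11 (SE, interval 0.05 to 0.51, adjusted p = 0.177 in edgeR), TALONT000408064 one of -0.52 ± 0.27 (adjusted p = 0.324) and MDH2-205 one of -0.48 ± 0.31 (adjusted p = 0.451). In that test of levels, 0 of the 8 member models tested were called in edgeR, beside 6.91% of 6768 models, and 1, MDH2-201, had an unadjusted p under 0.05. DESeq2 had 1 at that level and called 0 of the 3 models for which it gave an adjusted p. Without the lowest-total siControl library, the log2 fold change of MDH2-201 was 0.39 and its adjusted p in edgeR 0.0112, in a fit that called 15.3% of 7285 models. That library was picked from these same counts, so neither this pass nor that of MDH2 usage is independent support.

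**Figure D4:**
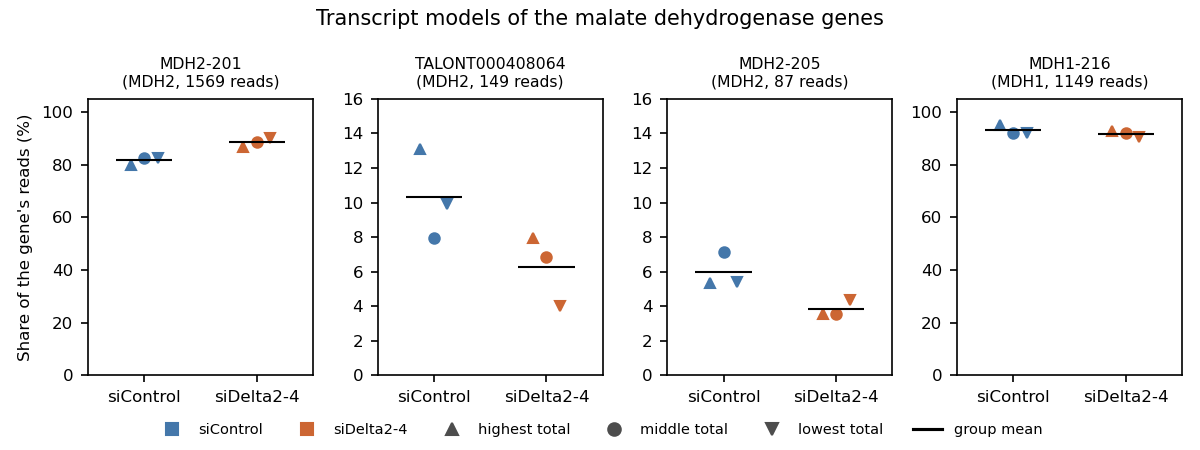
Share of a gene's reads, in percent, assigned to 3 models of MDH2 and to the leading model of MDH1 in each library, with group means as lines, colours for the siRNA groups and symbols for the rank of a library's total. MDH2-201 lies at 79.9% to 82.5% in siControl and 86.6% to 90.3% in siDelta2-4, whereas the groups overlap for TALONT000408064 and MDH1-216.

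No tested enzyme among the rest of the cycle was called either. Of 12 names on that list (aconitases, remaining isocitrate and alpha-ketoglutarate dehydrogenase subunits, succinyl-CoA ligase beta subunits and succinate dehydrogenase), 11 had rows and 5 were tested, of which 0 were called in edgeR, 0 had an unadjusted p under 0.05 and 0 were called by DESeq2, which gave an adjusted p for 2 of them. Over all genes tested, 13.0% were called, so that 0 of 5 is near the background. Log2 fold changes ran from -0.16 to 0.14 with a median of -0.01. SDHD and SDHC, the membrane anchors of succinate dehydrogenase, were the most counted, with 540 and 442 reads. SDHD had 73, 76 and 88 reads in siControl and 106, 108 and 89 in siDelta2-4, in order of falling total, and differed by 0.14 ± 0.14 on the log2 scale (SE, adjusted p = 0.589 in edgeR). For SDHC the log2 fold change was -0.01 ± 0.16 (adjusted p = 0.976 in edgeR), and for IDH3G, the gamma subunit that works with IDH3B, it was -0.12 ± 0.25 with 155 reads (adjusted p = 0.822 in edgeR). The log2 fold changes of SDHD, SDHC and IDH3G were 0.20, 0.02 and -0.03 without the lowest-total siControl library. In that fit 0 of 7 enzymes tested were called in edgeR, beside 25.4% of the 4098 genes tested.

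Enzymes and carriers that feed the cycle or draw on it were also not called in 6 libraries, and without the siControl library that stood apart 2 of 6 were, in a fit that called 25.4% of all genes tested. Of 28 names, 14 had rows and 6 were tested, with 0 called in edgeR and 0 by DESeq2, which gave an adjusted p for 1 of them. One, the oxoglutarate carrier SLC25A11, had an unadjusted p under 0.05 in edgeR (log2 fold change -0.70, adjusted p = 0.202, and -0.68 without the lowest-total siControl library) and is named because of that value. PDHA1 and PDHB, the subunits of the pyruvate dehydrogenase component that supplies acetyl-CoA, had log2 fold changes of 0.25 ± 0.22 (adjusted p = 0.545 in edgeR) and 0.38 ± 0.20 (adjusted p = 0.266 in edgeR). PDHB had 33, 31 and 45 reads in siControl and 66, 61 and 38 in siDelta2-4, so that the libraries with the lowest totals were the ones that overlapped. Without the lowest-total siControl library both passed, at 0.51 for PDHA1 (adjusted p = 0.0995 in edgeR) and 0.54 for PDHB (adjusted p = 0.0687 in edgeR). The choice to leave it out was made from these same counts, so these passes are not independent support. GOT1, the cytosolic aspartate aminotransferase of the malate-aspartate shuttle, had 288 reads and a log2 fold change of -0.25 ± 0.21 (adjusted p = 0.520 in edgeR), or -0.33 without that library.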

How the data were processed

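PCR-cDNA libraries of polyA RNA, 6 in all, were sequenced on 1 Oxford Nanopore flow cell for 72 h. The deposited table holds unnormalised read counts for each transcript model. The authors made it with minimap2 2.14, SAMtools 1.13, TranscriptClean and TALON on GRCh38.p14 with Gencode 44, and filtered unannotated models at a minimum of 5 reads in 3 samples. Columns were assigned to groups by the siRNA in their names. The 9 genes and all lists were chosen with earlier results of these data known.

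Counts were summed per gene and tested over all genes in R 4.3.3 by edgeR 4.0.16 (filterByExpr, TMM, quasi-likelihood F test, two-sided, Benjamini-Hochberg, called at an adjusted p under 0.1). Models were tested likewise, and usage with diffSpliceDGE. Each SE was obtained by dividing the log2 fold change by the root of its F. Alternatives were DESeq2 1.42.0 (Wald test, or its size factors alone), library totals, no filter, at least 10 counts in every library, a loess trend on length removed (span 0.4), an adjusted p under 0.05, annotated models alone, a replicate block and each library left out, and usage over annotated models alone, which was chosen after seeing the data. Scripts were tested on simulated counts with 200 changed genes. Neighbouring genes named are the 3 most counted of each list. Annotated on the opposite strand, WDPCP (MDH1) and ENSG00000289076 (SUCLG1) had 0 matched rows. Junction and exon sequences were taken from the Gencode 44 transcript sequences, with coordinates on GRCh38.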

Additional observations from a re-analysis of the deposited data

How the results depend on the processing

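None of CS, SUCLG1, FH, MDH1 and MDH2 was called under any alternative that gave it an adjusted p, and DESeq2 gave none for CS and FH. The number of all genes called was 504, and became 254 with the DESeq2 Wald test, 304 at an adjusted p under 0.05, 252 with known transcript models alone and 299 with a replicate block on the columns' numbers. Deviations from the group means in same-numbered libraries had correlations of 0.039, -0.136 and -0.0843. Libraries with different numbers were not compared, so whether the numbers pair the libraries was not settled. Leaving out each library in turn gave 194 to 1041 genes called, 0 to 2 genes called on the neighbouring lists, 0 to 1 member models called and 0 to 1 members with changed usage, and the upper value in each case came from the fit without the lowest-total siControl library (1041 genes, PDHA1 and PDHB, MDH2-201 and MDH2). Signs turned for CS, whose log2 fold change was -0.0873 with the length trend removed and -0.13 to 0.47 with a library left out, and for SUCLG1, at 0.0256 with library totals alone and -0.15 to 0.10 with a library left out. Left-out libraries gave FH 0.17 to 0.52, MDH1 0.0294 to 0.25 and MDH2 0.0573 to 0.23. With the length trend removed, MDH1 was at -0.0402, MDH2 at -0.0337 and MDH1-216 at -0.0377. The log2 difference in the ratio of MDH1 to MDH2 counts was -0.0923 with known models alone and 0.0417 per kilobase of each library's mean model length. The cause of these changes was not tested. Depth limited CS, FH, IDH1, IDH3B and OGDH, all at 88 reads or fewer, and the intervals of CS, FH, IDH1 and IDH3B reached ratios of 1.83 to 2.08. The ratio of IDH1 to IDH2 could not be computed because IDH2 had 0 matched rows.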
